A study of Homo sapiens with 4 samples.

Results

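The 62 genes described here are those of the WNT pathway in LNCaP cells: the WNT ligands, the Frizzled (FZD) receptors, their co-receptors, the secreted inhibitors, the R-spondin axis, the cytoplasmic regulators and the TCF/LEF factors. They were chosen by symbol. A probe set was taken when it was annotated to 1 gene whose symbol is WNT or FZD with a number, starts with SFRP, DKK or RSPO, or stands in a named list of 22 pathway genes. This gave 128 probe sets of 62 genes, of 39464 probe sets and 19583 genes in all. TCF7, which the list also names, had no probe set annotated to it alone and was not analysed here. LNCaP is a prostate cancer cell line that responds to androgen. The groups were 2 arrays labelled LNCap ERG, from cells given a lentivirus for ERG, an ETS transcription factor, and 2 arrays labelled LNCap Vector, from cells given the control lentivirus. Per the study's methods both viruses also carried red fluorescent protein, and both kinds of cells were plated and kept overnight before RNA was taken with Trizol. The arrays were run to profile what the ERG virus changes in RNA levels. No source used here gives the share of cells that carried the virus, or says that arrays of the same group came from different cultures. The p-values therefore rest on array-to-array spread alone, and that spread may be technical.

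WNT proteins are secreted ligands that bind Frizzled receptors together with LRP5 or LRP6. In the canonical branch this stops a complex of APC, AXIN and GSK3B from marking beta-catenin (CTNNB1) for destruction, and beta-catenin then acts with TCF/LEF factors on target genes such as AXIN2. Other WNT signals pass through ROR and RYK receptors without beta-catenin, and in the prostate the pathway is known from gland development and from cancers that progress under androgen deprivation.

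Values are log2 probe set intensities, and a gene is given by its brightest probe set unless stated. A set of 39 measured genes of other organs showed how bright a probe set reads for a gene that prostate cells are unlikely to use: their median was 3.18 and their 95th percentile 4.25. A probe set under that level in both groups is called dim. Brightness also depends on the probes, so levels of different genes are not compared with each other. The array medians lay between 14.05 and 14.39 on the linear scale, and arrays of 1 group differed by an SD of 0.18 (LNCap ERG) and 0.19 (LNCap Vector) on the log2 scale. All 8 measured luminal prostate markers were bright, among them KLK3 (12.81 and 12.85 in LNCap ERG, 12.94 and 12.97 in LNCap Vector), and all 4 measured basal markers were dim. Summed linear intensities of the 7 fibroblast markers were 518 and 483 in LNCap ERG, against 404 and 389 in LNCap Vector. Most of that sum was COL1A1 (0.38), 5 of the 7 were dim in both groups, and COL1A2 (-0.21), COL3A1 (-0.12) and LUM (-0.07) went the other way. The 5 endothelial markers summed to 113 and 103 in LNCap ERG, against 85.0 and 94.7 in LNCap Vector, with 4 of 5 dim. The 4 measured neuroendocrine markers summed to 330 and 322 in LNCap ERG, against 267 and 291 in LNCap Vector, mostly through ENO2 (0.28), while SYP was at -0.45. The luminal sum was 25592 and 25436 in LNCap ERG, against 26392 and 26595 in LNCap Vector, with KLK2 at -0.29. The part of these markers in the values below was not tested. The 4 ERG probe sets were dim in every array, with log2 fold changes of -0.24 to 0.12, so they do not check the labels, and the groups are named by label throughout.

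No WNT gene passed an adjusted p of 0.05 (limma, Benjamini-Hochberg over all genes), where 0.0102% of all genes did. The lowest adjusted p among the 62 genes was 0.37. At an unadjusted p under 0.05, 1 WNT gene read higher in LNCap ERG, where 5.61% of all genes did, and 5 read lower, where 4.11% of all genes did. In 9 genes both LNCap ERG arrays were above both LNCap Vector arrays (21.7% of all genes), in 11 they were below (19.1% of all genes), and in 42 the groups overlapped. The log2 fold changes ran between -0.52 and 0.46, with a median of 0.00 beside 0.01 over all genes. A p that misses the threshold does not show that a gene did not change, and the 95% confidence intervals give what these 4 arrays allow.

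The same count over the 128 probe sets gave 0 past the adjusted threshold (0.0% of all probe sets). At an unadjusted p under 0.05, 1 read higher (4.3% of all probe sets) and 11 read lower (4.41%). Of these 11, 4 belonged to TCF7L2, so the 11 do not stand for as many genes. Both LNCap ERG arrays were above both LNCap Vector arrays in 18 probe sets (18.9% of all) and below them in 26 (20.1% of all). Of the 35 genes with several probe sets, 14 had all of them on 1 side of 0 and 21 had both signs.

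A total of 31 WNT genes were above the dim level in both groups and 31 in neither. Among the 31 brighter genes the groups did not overlap in 9: LNCap ERG was above in 4 and below in 5, where 23.8% and 22.9% of all genes above that level were.

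**Figure D1:**
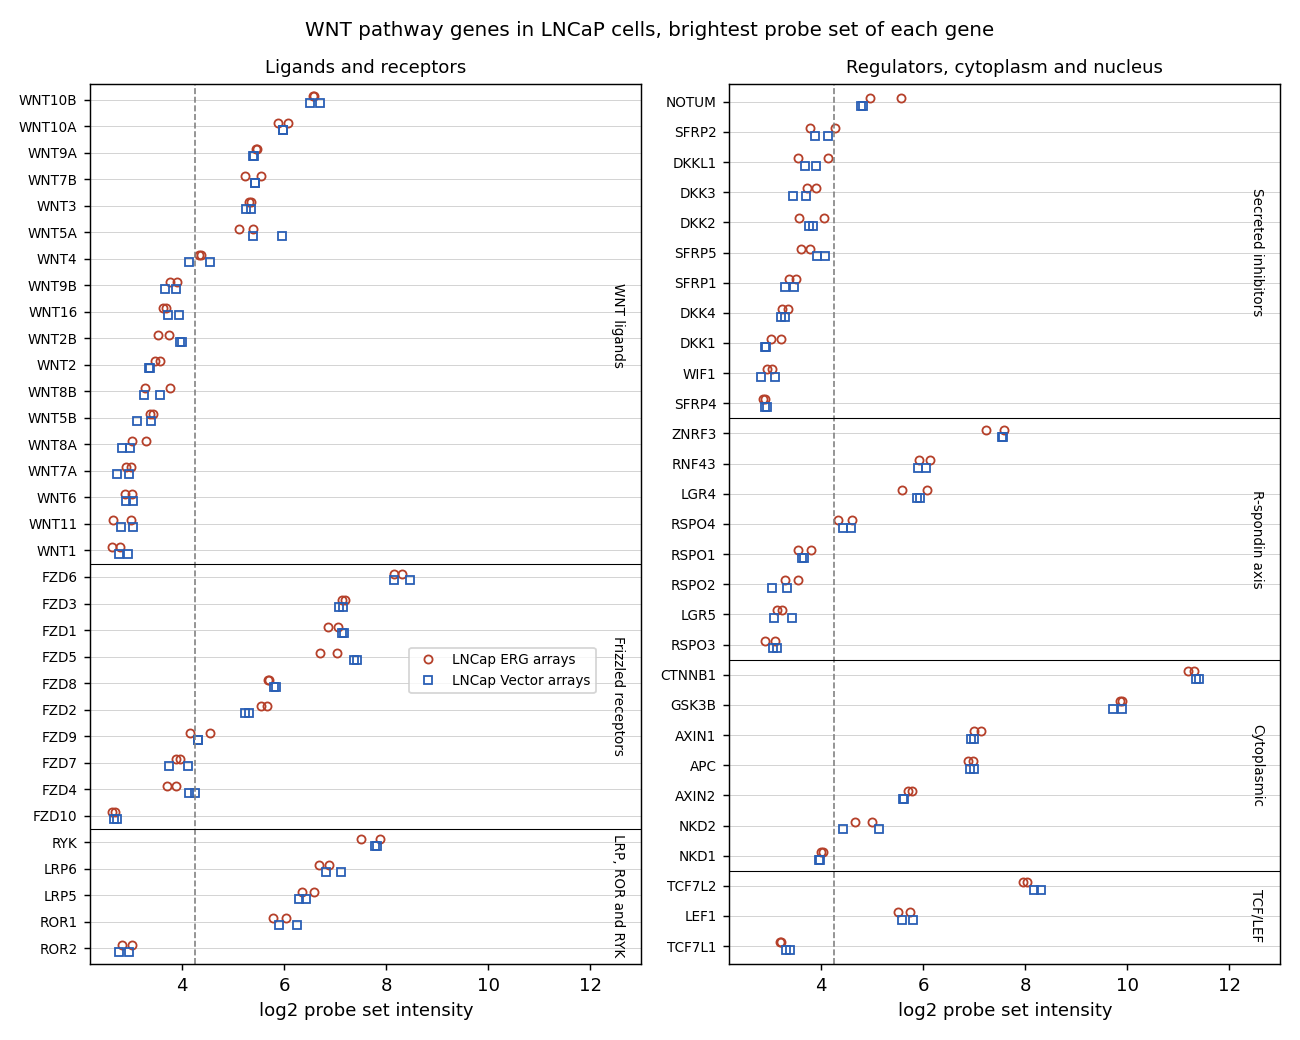
Log2 intensity of the brightest probe set of each of the 62 genes in each array, by role, with LNCap ERG as circles and LNCap Vector as squares. The dashed line marks the dim level, 4.25, and 10 of the 11 secreted inhibitors lie left of it in both group means.

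Among the ligands, 7 of 18 were above the dim level. WNT10B read 6.58 and 6.56 in LNCap ERG and 6.50 and 6.70 in LNCap Vector, and the groups overlapped. The others were WNT10A, WNT9A, WNT7B, WNT3, WNT5A and WNT4, the last of them close to the level. WNT5A, the best known ligand of the branch without beta-catenin, read 5.11 and 5.39 in LNCap ERG and 5.38 and 5.96 in LNCap Vector. The LNCap Vector arrays had an SD of 0.41 and the groups overlapped, and the interval of the log2 fold change of -0.42 held 0 (95% confidence interval -0.96 to 0.12, adjusted p = 0.59). Its dimmer probe sets read -0.10 and 0.14.

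By brightest probe set, WNT2B was the only ligand with an unadjusted p under 0.05, and it was dim. It read 3.75 and 3.53 in LNCap ERG, against 4.01 and 3.97 in LNCap Vector, with a fold change of -0.35 on the log2 scale (95% confidence interval -0.61 to -0.09, adjusted p = 0.42), while its second probe set read 0.01. The 10 other dim ligands, WNT1, WNT2, WNT5B, WNT6, WNT7A, WNT8A, WNT8B, WNT9B, WNT11 and WNT16, lay between -0.18 (WNT16) and 0.26 (WNT8A). The median over the 18 ligands was 0.01. WNT9A was above without overlap at its brightest probe set (0.06). Its dim second probe set was at -0.24, below without overlap, with an unadjusted p under 0.05.

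Among the 10 Frizzled receptors, each by its brightest probe set, an unadjusted p under 0.05 was reached in both directions. FZD2 was higher and FZD5 and FZD4 were lower in LNCap ERG, where 5.61% of all genes were higher and 4.11% lower at that threshold. No test of the receptors as a class was made. FZD5, a receptor of the canonical branch, had the lowest log2 fold change of the 62 genes. It read 6.71 and 7.04 in LNCap ERG, against 7.36 and 7.43 in LNCap Vector. The groups did not overlap, and the means were 6.87 ± 0.23 in LNCap ERG and 7.40 ± 0.05 in LNCap Vector (SD, n = 2 each). The log2 fold change was -0.52 (95% confidence interval -0.85 to -0.20), with an adjusted p of 0.37 by limma. Its dim second probe set was also without overlap, at -0.23.

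FZD2 read 5.55 and 5.67 in LNCap ERG, against 5.23 and 5.32 in LNCap Vector. All values of LNCap ERG were above those of LNCap Vector, with a log2 fold change of 0.34 (95% confidence interval 0.11 to 0.56, adjusted p = 0.37). Its dim second probe set gave 0.34 as well, also without overlap. FZD4, which also binds the ligand norrin, was dim, with 3.89 and 3.70 in LNCap ERG and 4.25 and 4.13 in LNCap Vector. The log2 fold change was -0.40 (95% confidence interval -0.66 to -0.14, adjusted p = 0.37), and its second probe set overlapped between the groups at -0.12.

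FZD6 read 8.15 and 8.30 in LNCap ERG and 8.16 and 8.46 in LNCap Vector, and the groups overlapped. FZD1 read 6.87 and 7.06 in LNCap ERG and 7.13 and 7.17 in LNCap Vector, without overlap, at -0.19 (95% confidence interval -0.43 to 0.05). FZD7 differed between its probe sets, both dim: the brighter was at -0.01 and the other at -0.40, without overlap. That dimmer probe set had an unadjusted p under 0.05. Its adjusted p by limma over all probe sets was 0.48, the lowest of the 128. FZD8, at -0.13, did not overlap between the groups, while FZD3 (0.05), FZD9 (0.04) and the dim FZD10 (-0.04) did. The other probe sets of FZD3, all above the dim level, were at -0.19 without overlap and at -0.14 and -0.06 with overlap. The median over the 10 receptors was -0.06.

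At the probe set that stands for each gene, the 5 co-receptors and other WNT receptors overlapped between the groups. RYK read 7.51 and 7.87 in LNCap ERG and 7.78 and 7.82 in LNCap Vector. LRP6 read 6.69 and 6.88 in LNCap ERG and 6.82 and 7.11 in LNCap Vector, a log2 fold change of -0.18 (95% confidence interval -0.51 to 0.16), and its second probe set, also above the dim level, was at -0.17 without overlap. LRP5 read 6.60 and 6.35 in LNCap ERG and 6.42 and 6.29 in LNCap Vector, at 0.11 (95% confidence interval -0.17 to 0.40), and its dim probe set was at -0.16 without overlap. At these probe sets the intervals held 0 for both canonical co-receptors. ROR1 read 5.78 and 6.04 in LNCap ERG and 5.90 and 6.26 in LNCap Vector, at -0.17 (95% confidence interval -0.56 to 0.23), and ROR2 was dim.

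The class of secreted inhibitors was set by symbol, as the DKK genes with DKKL1, the SFRP genes, WIF1 and NOTUM. Whether each of them inhibits WNT signals was not tested. Of these 11 genes, 10 were dim. NOTUM, an enzyme that removes the lipid WNT proteins need, was the exception. It read 5.56 and 4.96 in LNCap ERG, against 4.81 and 4.79 in LNCap Vector, without overlap. Its log2 fold change of 0.46 was the highest of the 62 genes, but the LNCap ERG arrays had an SD of 0.43, and the 95% confidence interval was -0.05 to 0.97 (adjusted p = 0.54). SFRP5, which binds WNT proteins, was dim, with 3.78 and 3.61 in LNCap ERG and 4.07 and 3.92 in LNCap Vector, at -0.30 (95% confidence interval -0.56 to -0.05, adjusted p = 0.46). The other 9, each by its brightest probe set, lay between -0.04 (SFRP4) and 0.24 (DKK3). Of the 6 probe sets of DKK3, all dim, 4 were above 0 and 2 below. The brightest was above without overlap. Another, at -0.29, was below without overlap and had an unadjusted p under 0.05.

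In the R-spondin axis, R-spondins bind LGR receptors and hold back the ligases RNF43 and ZNRF3, which remove Frizzled from the surface. By brightest probe set, all 8 genes of this axis overlapped between the groups, as did 11579 of all 19583 genes. The second probe set of LGR5, also dim, was at 0.25, with LNCap ERG above without overlap. ZNRF3 read 7.24 and 7.59 in LNCap ERG and 7.54 and 7.56 in LNCap Vector. RNF43 and LGR4 were also well above the dim level, RSPO4 was just above it, and LGR5, RSPO1, RSPO2 and RSPO3 were dim. The 8 log2 fold changes lay between -0.14 (ZNRF3) and 0.24 (RSPO2).

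**Figure D2:**
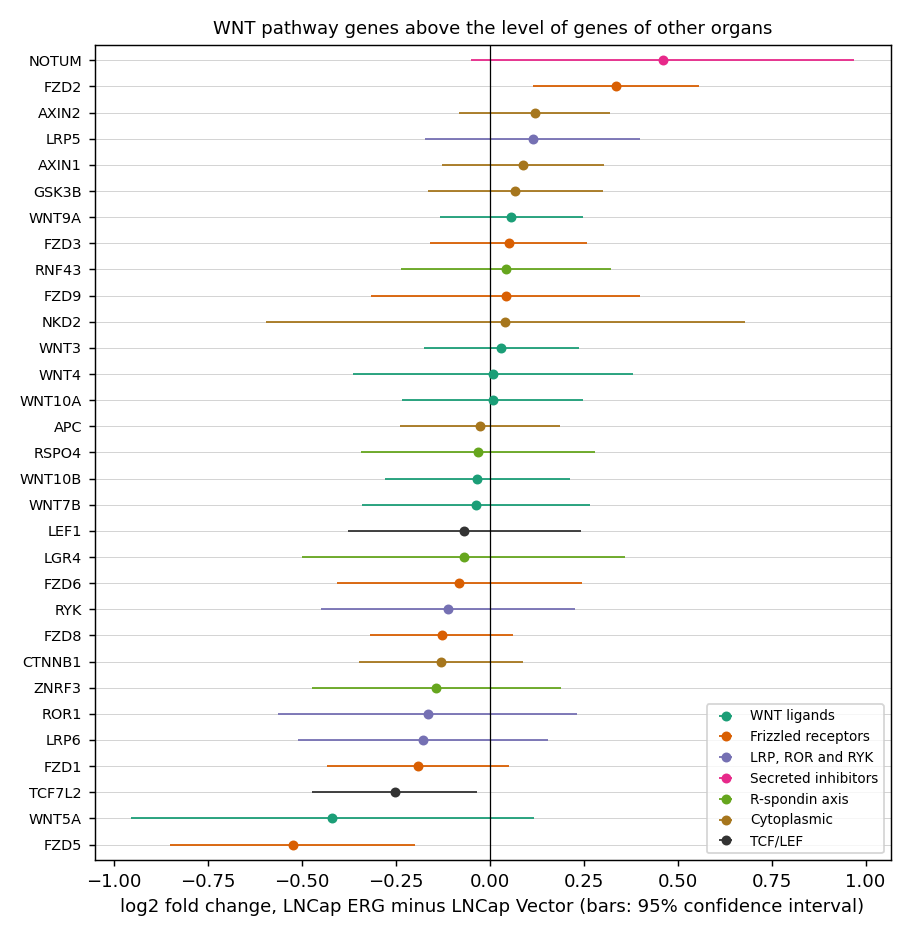
Log2 fold change, LNCap ERG minus LNCap Vector, of the 31 genes above the dim level, with 95% confidence intervals as bars and colours for roles. The intervals of FZD2, TCF7L2 and FZD5 leave out 0 before adjustment, and NOTUM, WNT5A and NKD2 have wide intervals.

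Of the 7 cytoplasmic genes, 6 were above the dim level. CTNNB1, beta-catenin, read 11.18 and 11.31 in LNCap ERG, against 11.34 and 11.41 in LNCap Vector. The groups did not overlap, at a log2 fold change of -0.13 (95% confidence interval -0.35 to 0.09, adjusted p = 0.67). Its second probe set was at -0.23, without overlap, and the third at 0.10, with overlap. GSK3B, the kinase that marks beta-catenin, read 9.86 and 9.89 in LNCap ERG and 9.72 and 9.89 in LNCap Vector. The groups overlapped, at 0.07 (95% confidence interval -0.16 to 0.30). Its second probe set, also above the dim level, was at -0.06, with LNCap ERG below without overlap. The third was at 0.11 and the dim ones at -0.26 and -0.02, all with overlap.

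AXIN2, a scaffold of the destruction complex and a target of the pathway, read 5.69 and 5.78 in LNCap ERG, against 5.62 and 5.61 in LNCap Vector. The groups did not overlap, at 0.12 (95% confidence interval -0.08 to 0.32, adjusted p = 0.67). The dim probe sets of AXIN2 were at 0.18 without overlap and at 0.11 and -0.03 with overlap. AXIN1 read 7.12 and 6.998 in LNCap ERG and 6.95 and 6.999 in LNCap Vector, with overlap. APC, the other scaffold, overlapped at its brightest probe set, and all 5 of its probe sets were between -0.09 and -0.03. The feedback inhibitors NKD1 (dim, 0.05) and NKD2 (0.04) had small differences, though the interval of NKD2 ran between -0.60 and 0.68.

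TCF7L2, one of the TCF/LEF factors that bind DNA with beta-catenin, read 8.02 and 7.95 in LNCap ERG, against 8.18 and 8.30 in LNCap Vector. The groups did not overlap, at -0.25 (95% confidence interval -0.47 to -0.03, adjusted p = 0.46). Of its 7 probe sets, 6 were below 0, and 4 of those were without overlap, where 20.1% of all probe sets were below without overlap. Probe sets of 1 gene share their arrays and are not replicates. The exception, at 0.23, overlapped. LEF1 read 5.51 and 5.73 in LNCap ERG and 5.58 and 5.80 in LNCap Vector, at -0.07 (95% confidence interval -0.38 to 0.24), with overlap. The dim probe sets of LEF1 were at -0.04, with overlap, and at 0.13, with LNCap ERG above without overlap. TCF7L1 was dim, at -0.14. In these bulk samples, fewer cells that hold an RNA and less of it per cell cannot be told apart.

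**Figure D3:**
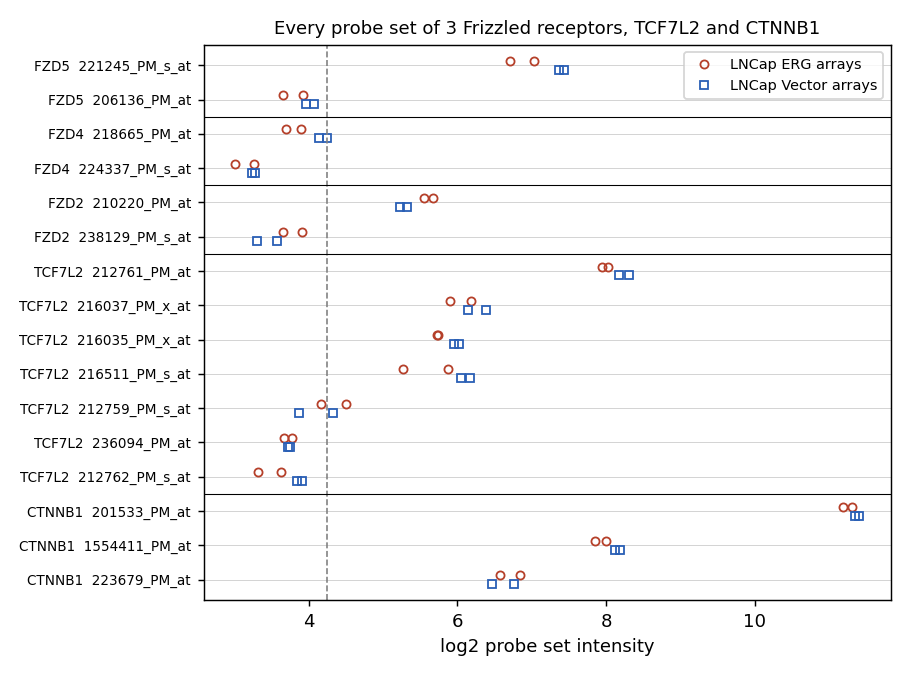
Log2 intensity of every probe set of FZD5, FZD4, FZD2, TCF7L2 and CTNNB1 in each array, with LNCap ERG as circles, LNCap Vector as squares and the dim level as a dashed line. LNCap ERG lies left of LNCap Vector at both FZD5 probe sets and right of it at both FZD2 probe sets.

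Other genes of the pathway were taken from a list of 58, of which 56 were measured. None passed the adjusted threshold. With an unadjusted p under 0.05 there were 5 with higher and 1 with lower values in LNCap ERG (5.61% and 4.11% of all genes), and the median over the list was 0.03. BCL9, which links beta-catenin to the transcription machinery, read 6.02 and 6.16 in LNCap ERG, against 5.70 and 5.77 in LNCap Vector (0.35, adjusted p = 0.37). The others higher were VANGL2 of planar polarity (0.30), TMEM88 (0.29), the co-repressor TLE2 (0.28) and the DKK receptor KREMEN1 (0.23). The co-repressor TLE4 was lower and dim (-0.24).

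Of 24 listed target genes, 23 were measured, and again none passed the adjusted threshold. SNAI2, a transcription factor of epithelial plasticity, read 5.71 and 5.93 in LNCap ERG, against 6.31 and 6.43 in LNCap Vector (-0.55, 95% confidence interval -0.82 to -0.28, adjusted p = 0.32). SOX9 read 4.97 and 5.13 in LNCap ERG, against 5.31 and 5.57 in LNCap Vector (-0.39, adjusted p = 0.43). In the other direction, SOX4 read 11.62 and 11.65 in LNCap ERG, against 11.20 and 11.32 in LNCap Vector (0.37, adjusted p = 0.35). The dim PRDM1 was at 0.38. The groups did not overlap for SNAI2, SOX9, SOX4 or PRDM1. At an unadjusted p under 0.05, 2 target genes were higher and 2 lower (5.61% and 4.11% of all genes). Without overlap, LNCap ERG was above in 6 and below in 7 (21.7% and 19.1% of all genes). MYC was at 0.08 and CCND1 at 0.02, and the median over the 23 was 0.02.

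**Figure D4:**
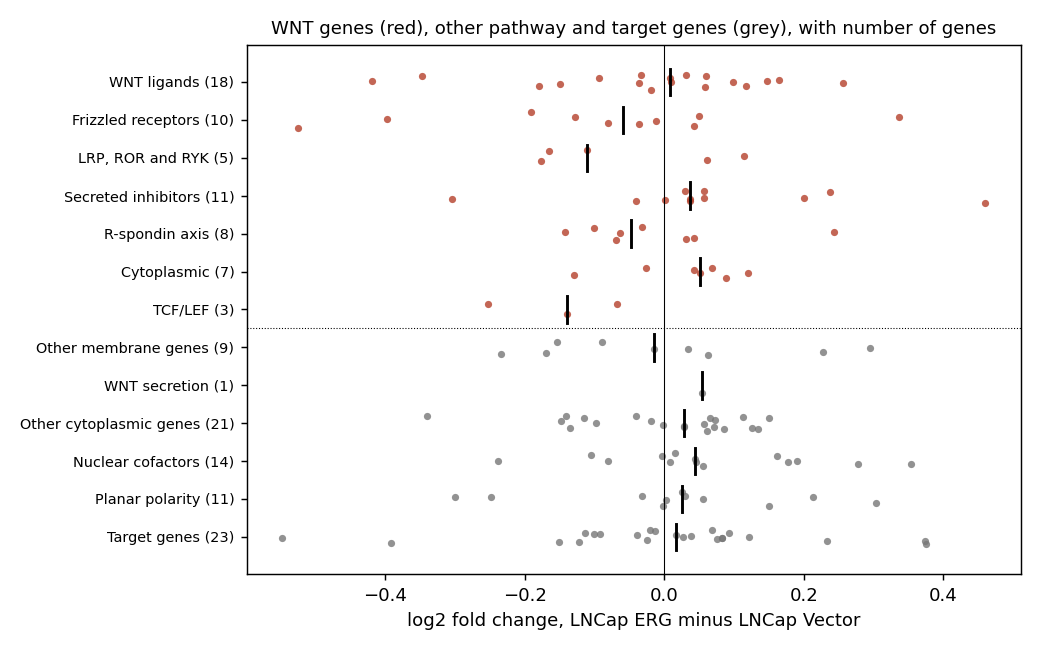
Log2 fold change of each gene, LNCap ERG minus LNCap Vector, by role, with the median as a black bar and the number of genes in brackets. Points of every role with more than 1 gene, except the TCF/LEF factors, lie on both sides of 0. The 3 TCF/LEF genes, each by its brightest probe set, lie below it.

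Promoters of FZD5, FZD4, TCF7L2 and CTNNB1 are printed. The first 3 read lower at an unadjusted p under 0.05, and CTNNB1 carries the canonical signal. WNT2B and SFRP5 also read lower at that threshold, and their promoters are not printed. Each printed promoter runs 250 bases before to 50 after a gene start, 5′ to 3′ on the gene's strand, from RefSeq (GRCh38.p14). For TCF7L2 the outermost of 3 starts is shown. They were searched on both strands for CCGGAA, a form of the ETS site, and for CTTTGA, a form of the TCF/LEF site. Neither run of letters is in these 4 windows, so none is in capitals.
FZD5 promoter, chr2:207769857-207770156, minus strand: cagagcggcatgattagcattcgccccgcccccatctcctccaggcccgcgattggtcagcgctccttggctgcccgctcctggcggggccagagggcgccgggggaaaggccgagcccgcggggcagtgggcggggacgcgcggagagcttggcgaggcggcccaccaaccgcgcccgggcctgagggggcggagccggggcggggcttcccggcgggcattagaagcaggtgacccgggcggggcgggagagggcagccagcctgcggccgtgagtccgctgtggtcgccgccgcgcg
FZD4 promoter, chr11:86955346-86955645, minus strand: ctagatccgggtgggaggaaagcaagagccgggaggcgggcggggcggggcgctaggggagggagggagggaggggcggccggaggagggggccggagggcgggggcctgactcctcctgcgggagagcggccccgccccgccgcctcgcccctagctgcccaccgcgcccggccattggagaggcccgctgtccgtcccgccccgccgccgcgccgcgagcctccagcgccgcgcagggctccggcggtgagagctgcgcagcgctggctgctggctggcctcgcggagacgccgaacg
TCF7L2 promoter, chr10:112949997-112950296, plus strand: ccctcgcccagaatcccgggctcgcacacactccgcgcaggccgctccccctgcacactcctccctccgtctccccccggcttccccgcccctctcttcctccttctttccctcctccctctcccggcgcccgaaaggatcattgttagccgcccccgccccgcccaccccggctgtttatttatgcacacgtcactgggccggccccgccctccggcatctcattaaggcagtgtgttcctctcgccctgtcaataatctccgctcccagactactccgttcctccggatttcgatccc
CTNNB1 promoter, chr3:41199255-41199554, plus strand: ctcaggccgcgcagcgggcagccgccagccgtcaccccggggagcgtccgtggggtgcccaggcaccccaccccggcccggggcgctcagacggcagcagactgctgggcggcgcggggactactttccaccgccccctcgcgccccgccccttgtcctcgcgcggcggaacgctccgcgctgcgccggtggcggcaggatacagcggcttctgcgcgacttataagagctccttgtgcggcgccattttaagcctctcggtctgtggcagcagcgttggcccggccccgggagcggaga

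RefSeq windows were matched for 43 of the 62 genes. CCGGAA was in the windows of 3 of them (AXIN1, DKK1 and GSK3B), or 6.0% of the 50 windows, beside 17.2% of all 35116 windows. CTTTGA was in those of 1 gene (DKK1), or 2.0% of the windows, beside 12.9% of all windows. After these searches had found nothing in the 4 printed windows, GGAA, the short ETS core held inside CCGGAA, was also searched. It was in 94.0% of the windows of WNT genes, beside 95.5% of all windows, the 4 printed ones included. A match is a description of letters, not a binding site, and no match says only that the letters are not in the window.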

How the data were processed

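RNA of LNCaP cells was measured on 4 Affymetrix U133-type arrays, 2 for each group. The authors deposited probe set intensities, linear by their range, made with dChip and RMAexpress and annotated in Multiexperiment Viewer. Their versions are not stated in the sources used. They were taken to log2. Of 51965 probe sets, 838 name several genes and 11661 none and were not used, and 2 with a missing value were left out, none of a WNT gene. The probe set with the highest mean stood for its gene. FZD10-AS1 and FZD4-DT were not taken as members, and DKKL1 was.

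The comparison used limma 3.58.1 (lmFit, eBayes) under R 4.3.3, with 2 residual and 3.23 prior degrees of freedom, and the Benjamini-Hochberg adjustment ran over every feature at a threshold of 0.05. Tables and plots were made in Python 3.11.15 with pandas 2.3.3 and matplotlib 3.10.9.

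The members and gene lists were chosen with earlier results of these data known. Genes named with all values were CTNNB1, GSK3B, LEF1, TCF7L2, AXIN2 and FZD4, every member with an unadjusted p under 0.05, the 6 highest and 6 lowest log2 fold changes among genes above the dim level, and the gene of each role with the highest probe set intensity, a choice of what to print and not a comparison of levels. Of the other lists, up to 6 genes with an unadjusted p under 0.05 were named. KLK3, COL1A1, MYC, CCND1 and others named beside these were chosen after their values were seen. In promoters, 3 motifs were searched: 2 were chosen after the members' values were seen, and GGAA was added after the matches of those 2 were known. The printed promoters were chosen before any match was known.

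The alternatives tried were each array left out in turn, features below the median intensity of all left out (a higher limit than the dim level, which kept 25 WNT genes), averaging the probe sets of a gene, plain probe sets, a second quantile normalization, housekeeping centring, trended and robust moderation, the methods' t-test, and a block for the replicate number. Arrays have no read depth: their number limits the precision.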

Additional observations from a re-analysis of the deposited data

How the results depend on the processing

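No WNT gene or probe set passed the adjusted threshold under any alternative. The lowest adjusted p of a WNT gene was 0.13 without features below the median intensity of all (25 WNT genes and 49 probe sets left), 0.14 with trended and robust moderation, 0.59 with the methods' t-test and 0.41 to 0.74 without each array in turn. The 1 gene higher at an unadjusted p under 0.05 became 2 with trended and robust moderation, 2 with the mean of probe sets and 1 to 3 without each array. The 5 lower became 2 without features below the median, 1 with the methods' t-test, 3 with the mean of probe sets, 2 with plain probe sets and 4 to 5 without each array. The 1 higher probe set became 2 with trended and robust moderation, 2 with quantile normalization again and 1 to 5 without each array. The 11 lower became 5 without features below the median, 5 with the methods' t-test and 6 to 9 without each array. The shares of all features at this threshold were not counted under these alternatives. The moves therefore cannot be set against those of all features, and they are not read as particular to WNT genes. Their cause was not tested, except that leaving out features below the median tests fewer genes.

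The difference between arrays 1 and 2 of LNCap ERG and that of LNCap Vector had r = 0.077 over 19583 genes. The replicate number does not pair the arrays by label. With it as a block, an unadjusted p under 0.05 was reached by 3 higher and 5 lower genes (5.53% and 4.21% of all genes) and by 4 higher and 10 lower probe sets (4.16% and 4.39% of all probe sets), and the lowest adjusted p of a WNT gene was 0.50.

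Signs turned for GSK3B (-0.0297), LEF1 (0.00706) and LRP5 (-0.0233) with the mean of probe sets. Without 1 array they turned for FZD6 (-0.23 to 0.0703), GSK3B (-0.0171 to 0.15), LEF1 (-0.18 to 0.0432), LRP5 (-0.00773 to 0.24), ROR1 (-0.35 to 0.0157), RYK (-0.29 to 0.0666), WNT10B (-0.13 to 0.0675) and ZNRF3 (-0.32 to 0.0321). FZD5 ranged between -0.69 and -0.36, FZD2 between 0.28 and 0.40, TCF7L2 between -0.32 and -0.19 and NOTUM between 0.16 and 0.76. WNT5A ranged between -0.71 and -0.13, LRP6 between -0.32 and -0.03, FZD1 between -0.29 and -0.10, CTNNB1 between -0.19 and -0.07 and AXIN1 between 0.03 and 0.15. FZD5 was at -0.23 with plain probe sets, which leave only its dim one, and WNT5A at -0.10. With the mean of probe sets WNT5A was at -0.13 and WNT2B at -0.17.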
